A study of Mus musculus with 143 samples.

Results

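Striatal RNA from wild-type mice that had received 2 treatments with HTT-10150, a small interfering RNA against the huntingtin gene Htt, was compared with RNA from wild-type mice that had received 2 treatments with NTC, a small interfering RNA with no target. The libraries were those whose labels give the sample group as wild type, 2+6[8]10 and one of these agents, 7 with HTT-10150 and 8 with NTC, 15 of the 143 libraries of the series. Mice of the 2+6[8]10 strategy were treated at 2 and again at 6 months of age and their striatum was taken at 10 months. The HTT-10150 group held 2 females and 5 males and the NTC group 4 females and 4 males. A group of 8 untreated wild-type mice of the same age, 4 of each sex, gave the level without either agent. Other groups were used to place the comparison. They were zQ175 mice of the same strategy, which carry an expanded CAG repeat knocked in to their own Htt gene and were given HTT-10150, NTC or nothing, and wild-type and zQ175 mice of the strategies with 1 treatment, 2[4]6 (treated at 2 months, taken at 6) and 6[4]10 (treated at 6 months, taken at 10). Each of these groups held 8 mice. The amount of RNA given and the route are not stated in the labels, nor is it stated whether mice of a group shared a litter, so the p-values measure the spread between these animals.

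Huntingtin is a large scaffold protein that helps to move vesicles along microtubules and takes part in autophagy and in the delivery of growth factor from cortex to striatum. A small interfering RNA is loaded into Argonaute, which cuts messenger RNAs that pair with it, so that the level of the target messenger falls. In Huntington's disease a longer CAG repeat in this gene harms above all the medium spiny neurons, the projection neurons that make up most of the striatum. Wild-type mice have no such repeat, and the comparison reads the other striatal genes where the normal transcript is the target.

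The target lies on chromosome 5 of GRCm38, from 34761740 to 34912534 on the plus strand (ENSMUSG00000029104, protein coding). The first 99 bases of its coding sequence, in exon 1 at chr5:34761907-34762005 of the same build, are printed to show what a wild-type transcript carries at the site of the disease repeat. Capitals mark the run of 7 glutamine codons, 6 CAG and 1 CAA, that starts at codon 18.
Htt: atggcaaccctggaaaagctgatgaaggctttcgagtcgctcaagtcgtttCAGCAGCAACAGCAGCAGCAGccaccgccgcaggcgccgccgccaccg
The count table has a separate entry for a mutant form of Htt. It was at 0 in all 15 libraries and above 0 in 23 of the 24 zQ175 libraries of the strategy. Its counts were few, with a sum of 23.48 over the zQ175 NTC libraries and 14.33 over the zQ175 HTT-10150 libraries. Whether the main Htt entry of zQ175 mice also holds mutant transcript was not tested.

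Total counts ran from 12.55 M to 23.32 M in the 15 libraries, within the range of 12.55 M to 29.19 M over the series. Levels are in CPM, counts scaled to the same library total after TMM adjustment. The sex read from Xist and Ddx3y matched the label in 15 of 15 libraries. The tissue label was checked with medium spiny neuron markers. Ppp1r1b, which encodes DARPP-32, had a median of 2482 CPM with HTT-10150 and 2488 CPM with NTC, and Drd1, the D1 dopamine receptor, had 293 CPM with HTT-10150 and 296 CPM with NTC. The glutamate transporter gene Slc17a7, a marker of cortical neurons, varied within each group, with 8.52 to 158.8 CPM in HTT-10150 libraries, 24.5 to 170 CPM in NTC libraries and 13.3 to 173 CPM in untreated ones. It was above 100 CPM in 4 of these wild-type libraries, namely HTT-10150 female 1 and male 1, NTC male 2 and untreated male 1. HTT-10150 female 1 also had 596 CPM of Ttr, a choroid plexus transcript, against 17.5 to 87.1 CPM in the other HTT-10150 libraries and 20.1 to 105 CPM in the NTC libraries.

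Htt was lower in every HTT-10150 mouse. The 2 females given HTT-10150 had 103 and 98.1 CPM, and the 5 males had 132, 128, 131, 125 and 97.5 CPM. The 4 NTC females had 160.6, 161.6, 163.04 and 163.3 CPM, and the 4 NTC males had 175.6, 149.4, 151.8 and 166.6 CPM. The groups did not overlap, and within the HTT-10150 group 3 mice, both females and male 5, lay near 100 CPM while the other 4 males lay between 125 and 132 CPM.

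The mean was 116.4 ± 16.03 CPM with HTT-10150 (SD, n = 7) and 161.5 ± 8.23 CPM with NTC (SD, n = 8), a mean lower by 27.9%, with p = 0.000155 in an exact two-sided permutation test, the smallest p that 6435 choices of 7 mice can give. In the fit across all genes the log2 fold change was -0.49 with a standard error of 0.061 and a 95% interval of -0.61 to -0.37 (adjusted p = 5.01e-06, edgeR quasi-likelihood test with Benjamini-Hochberg adjustment). Untreated mice had 154.2 to 175.02 CPM with a mean of 162.97 ± 6.52 CPM (SD, n = 8). Htt was lower in HTT-10150 mice than in untreated mice by a log2 fold change of -0.50 (edgeR adjusted p = 2.54e-06), and NTC mice differed from untreated mice by -0.014 (edgeR adjusted p = 0.963), less than the spread between animals.

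**Figure D1:**
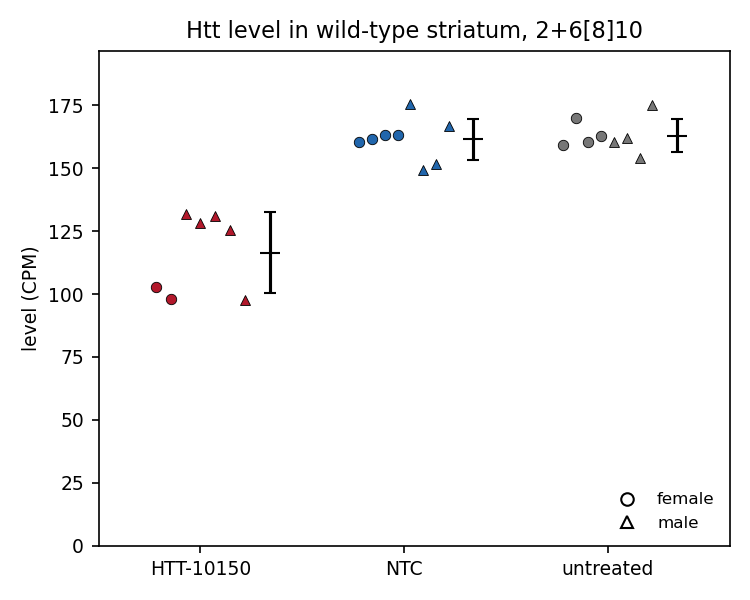
Htt level (CPM, linear axis from 0) in each wild-type library of 2+6[8]10, with HTT-10150, with NTC and untreated. Circles are females, triangles males, and the bars to the right of each group are the mean and SD. The 7 HTT-10150 libraries lie between 97.5 and 132 CPM, below all 8 NTC libraries at 149.4 to 175.6 CPM.

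Both sexes showed the lower level. The mean was 100.5 ± 3.38 CPM in HTT-10150 females (SD, n = 2) and 162.1 ± 1.28 CPM in NTC females (SD, n = 4), lower by 38.0%, where an exact permutation test cannot go below p = 0.0667, the value it gave. In males it was 123 ± 14.3 CPM with HTT-10150 (SD, n = 5) and 160.9 ± 12.5 CPM with NTC (SD, n = 4), lower by 23.7%, with p = 0.00794 in the exact permutation test, again the smallest it can give. The fitted effect was -0.69 ± 0.093 in females and -0.39 ± 0.070 in males (log2, SE). The difference between the sexes, female minus male, was -0.30 ± 0.12 and did not pass the test over all genes (edgeR adjusted p = 0.988, unadjusted p = 0.0129). When only male libraries were fitted, Htt had the same log2 fold change of -0.39, with an edgeR adjusted p of 0.341 and an unadjusted p of 2.5e-05.

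The annotated span of Htt overlaps at its end with that of another gene, and whether the 2 genes share reads there was not tested. Msantd1, a gene of unknown function in these sources, lies on the same strand from 34908012 to 34923839 and overlaps the last part of Htt. It had 2.50 to 4.43 CPM with HTT-10150 and 3.06 to 4.48 CPM with NTC, a log2 fold change of -0.20 ± 0.12 (SE) that did not pass the test (edgeR adjusted p = 0.97). Of 13 genes measured in the surrounding region, 0 were called by edgeR and 1, Mfsd10, had an unadjusted p under 0.05 (log2 fold change -0.20, chosen after its value was seen). Their median log2 fold change was -0.031, against -0.0006 over all genes.

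Over all genes the comparison called 2 of 15506 genes (0.0129%) at an adjusted p under 0.05, 1 lower (0.00645%), which was Htt, and 1 higher (0.00645%), which was Fcrls. An unadjusted p under 0.05 was found for 812 genes (5.24%), the 2 called ones among them. The median standard error of a log2 fold change was 0.065. The 95% interval lay within 0.5 of 0 on the log2 scale, a 1.41-fold difference, for 13146 genes (84.8%), and for 10462 (98.9%) of the 10583 genes with a mean log2 CPM above 3. For the remaining genes, Htt and Fcrls among them, the interval reached past that size.

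**Figure D2:**
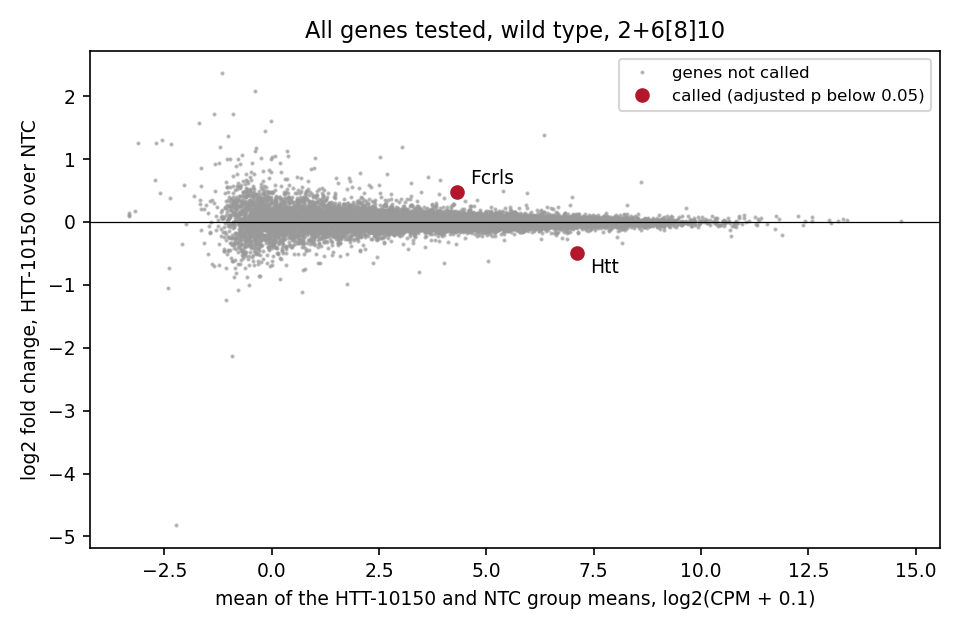
Log2 fold change of each of the 15506 genes tested, HTT-10150 over NTC, against the mean level of both groups as log2(CPM + 0.1). The 2 called genes, Htt at -0.49 and Fcrls at 0.48, are drawn in red, and genes of low level spread widely around 0.

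Fcrls encodes an Fc receptor-like scavenger protein that in mouse brain marks microglia, the resident immune cells. It lies on chromosome 3 of GRCm38 from 87250758 to 87263738 on the minus strand. It had 26.3 and 29.6 CPM in the 2 HTT-10150 females and 21.2, 19.97, 18.6, 20.4 and 22.9 CPM in the 5 males. In NTC mice it had 19.3, 18.96, 19.6 and 17.3 CPM in females and 12.05, 17.7, 13.5 and 18.9 CPM in males. Both HTT-10150 females lay above the 5 HTT-10150 males, while the sexes overlapped among NTC mice. The pooled groups overlapped. Within each sex every HTT-10150 mouse but 1 male lay above every NTC mouse, that male lying at 18.6 CPM, below the highest NTC male at 18.9 CPM.

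The log2 fold change of Fcrls was 0.48 ± 0.069 (SE), with a 95% interval of 0.34 to 0.61 and an edgeR adjusted p of 6.18e-05. The call rested on the sex term and on the choice of control. Without a sex term the log2 fold change was 0.42 and the edgeR adjusted p 0.485, in males alone it was 0.42 with an edgeR adjusted p of 0.77, and against untreated mice it was 0.11 with an edgeR adjusted p of 1. Untreated mice had 18.9 to 25.8 CPM of Fcrls, a range that holds 4 of the 7 HTT-10150 values.

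NTC mice themselves were lower than untreated mice in Fcrls, by a log2 fold change of -0.36 ± 0.067 (SE, edgeR adjusted p = 0.00539). That comparison called 28 genes (0.181%), 11 higher in NTC mice (0.0709%) and 17 lower (0.11%), and it shares the 8 NTC libraries with the comparison to HTT-10150. Among the lower genes, named after their values were seen, were Mrc1, the mannose receptor of perivascular macrophages (-1.81), the collagen gene Col3a1 (-1.32), the matrix proteoglycan gene Dcn (-0.67) and Ptgds, which makes prostaglandin D2 (-0.44). The same genes had log2 fold changes of 0.93, 0.79, 0.053 and 0.39 for HTT-10150 over NTC, with edgeR adjusted p of 0.383, 0.391, 0.999 and 0.383 in that order. Of the 12 meningeal and fibroblast genes 0 were above 0 for NTC over untreated, with a median of -0.49, 2 called lower by edgeR and 7 lower at an unadjusted p under 0.05.

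Untreated female 3 and male 3 stood apart, with summed meningeal and fibroblast levels of 126.8 and 102.2 CPM, against 43.1 to 51.1 CPM in the other 6 untreated mice, and summed choroid plexus and ependymal levels of 2488 and 1982 CPM, against 362 to 513 CPM in the others. Without the 3 wild-type libraries whose choroid plexus and ependymal sum was over 1000 CPM (these and HTT-10150 female 1, a selection made after seeing the data), NTC over untreated called 17 genes by edgeR, 4 higher and 13 lower. There Mrc1 was at -1.75, Col3a1 at -1.33, Ptgds at -0.49 and Fcrls at -0.35, all still called (edgeR adjusted p of 0.000198, 0.00203, 0.049 and 0.0337), and Dcn was at -0.62 and no longer called (edgeR adjusted p = 0.085). HTT-10150 over NTC called Htt (-0.46, edgeR adjusted p = 0.000113) and Fcrls (0.48, edgeR adjusted p = 0.00051) without these libraries. HTT-10150 over untreated called 1 gene by edgeR (0.00645%), Htt itself, with 691 genes (4.46%) at an unadjusted p under 0.05.

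Mrc1 was low throughout, with 0.562 to 1.09 CPM in HTT-10150 mice, 0.213 to 0.844 CPM in NTC mice and 0.988 to 2.25 CPM in untreated mice. The NTC range overlapped that of HTT-10150 mice and lay wholly below that of untreated mice. In zQ175 mice of the same strategy NTC over untreated called 0 genes by edgeR (473, or 3.05%, at an unadjusted p under 0.05), and Mrc1 and Fcrls differed there by -0.54 and -0.12. The same comparison also called 0 genes by edgeR in each genotype of the 2 other strategies, where 316 to 1167 genes (2.01% to 7.41%) had an unadjusted p under 0.05.

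Other genes came near the threshold or separated the groups. All 7 HTT-10150 libraries lay below all 8 NTC libraries for 8 genes (0.0516%) and above all 8 for 6 genes (0.0387%). Those named here, apart from Htt, were chosen after their values were seen. Abca8a, a transporter of the ABC family, had the smallest adjusted p among the genes not called. It had 27.7, 28.7 and 35.5 CPM as the lowest, median and highest HTT-10150 values and 19.7, 24.2 and 27.9 CPM as those of NTC. The lowest HTT-10150 mice lay within the NTC range, and the log2 fold change was 0.35 ± 0.071 (SE, edgeR adjusted p = 0.0515).

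Ado, which encodes a dioxygenase of small thiols, had 93.6 to 102.3 CPM with HTT-10150 and 76.8 to 90.3 CPM with NTC, without overlap (log2 fold change 0.22, edgeR adjusted p = 0.0938). Gfra1, the co-receptor for the growth factor GDNF, had 61.6 to 69.9 CPM with HTT-10150 and 53.004 to 60.3 CPM with NTC, also without overlap (log2 fold change 0.23, edgeR adjusted p = 0.181). Ssr1, a subunit of a complex at the protein channel of the endoplasmic reticulum, had 140.086 to 145.6 CPM with HTT-10150 and 119 to 140.078 CPM with NTC, so that the nearest mice of the groups all but met (log2 fold change 0.13, edgeR adjusted p = 0.181). In the other direction Stk11ip, whose product binds the kinase LKB1, had 24.35 to 27.76 CPM with HTT-10150 and 27.85 to 33.3 CPM with NTC, again without overlap (log2 fold change -0.21, edgeR adjusted p = 0.131).

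Untreated mice had 90.3 to 106 CPM of Ado, 59.6 to 74.1 CPM of Gfra1 and 142.4 to 159.1 CPM of Ssr1, which put most of them above the NTC range, and 25.9 to 31.2 CPM of Stk11ip, which overlapped both treated groups. For HTT-10150 over untreated the log2 fold changes of Abca8a, Ado, Gfra1, Ssr1 and Stk11ip were 0.049, -0.019, 0.038, -0.047 and -0.11, and 0 of the 5 passed the edgeR test. Some were called over NTC in other settings. DESeq2 called Abca8a, Ado, Stk11ip and Ssr1 (DESeq2 adjusted p of 0.00731, 0.0257, 0.0257 and 0.0441). A fit of only the 15 libraries called Abca8a, Ado and Gfra1 (edgeR adjusted p of 0.0401, 0.0393 and 0.0393).

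**Figure D3:**
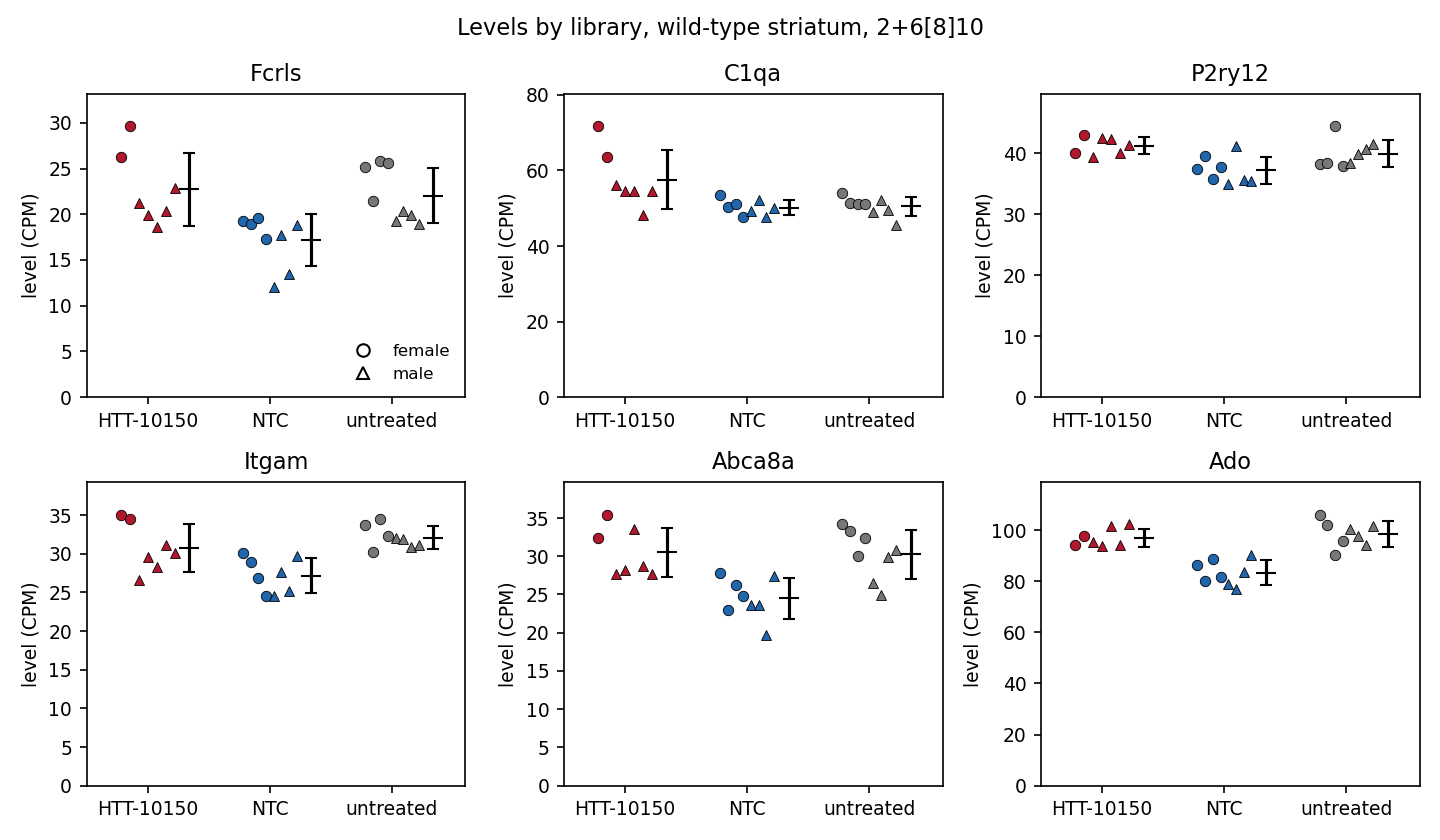
Level (CPM, linear axes from 0) of Fcrls, the microglial genes C1qa, P2ry12 and Itgam, and of Abca8a and Ado in each wild-type library of 2+6[8]10, with HTT-10150, with NTC and untreated. Circles are females, triangles males, bars the mean and SD. Ado is the panel without overlap of HTT-10150 (93.6 to 102.3 CPM) and NTC (76.8 to 90.3 CPM), and its untreated libraries (90.3 to 106 CPM) lie with the HTT-10150 ones.

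Lists of genes for cell types and pathways were read against these values, 34 lists with 622 listed symbols of which 603 were tested. In the comparison of HTT-10150 with NTC, 1 list had a called member, the list of huntingtin and its protein partners, and that member was Htt. In bulk tissue fewer cells of a type and less RNA per cell cannot be told apart.

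The 30 genes of huntingtin and its partners had a median log2 fold change of -0.012, and 1, Htt, was called. Kif5b, the heavy chain of a kinesin motor that carries vesicles, had 452, 553 and 567 CPM as the lowest, median and highest values with HTT-10150 and 465, 511 and 539 CPM with NTC (log2 fold change 0.11, edgeR adjusted p = 0.97). For 6 of the 7 HTT-10150 libraries Kif5b lay above every NTC library, and the remaining one, male 1, lay below them all. Hip1r, which links clathrin coats to actin, had 78.1, 85.4 and 92.3 CPM with HTT-10150 and 80.6, 90.1 and 95.4 CPM with NTC (log2 fold change -0.064, edgeR adjusted p = 0.97), with wide overlap. The 21 genes of axonal transport, the 26 of autophagy, the 12 of neurotrophin signalling and the 28 of the respiratory chain had 0 called members by edgeR, with medians of 0, 0.001, -0.011 and -0.010. At an unadjusted p under 0.05 they held 0, 4, 0 and 0 genes in that order.

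Of the 32 medium spiny neuron genes tested, 0 were called by edgeR and 0 had an unadjusted p under 0.05, and 3 had a log2 fold change above 0. Their median was -0.037, against -0.0006 over all genes, and single values ran from -0.17 to 0.057. Over untreated mice 15 of the 32 were above 0 for HTT-10150, with a median of -0.007, and 25 of the 32 were above 0 for NTC, with a median of 0.036. Drd1 had 258, 293 and 302 CPM as the lowest, median and highest values with HTT-10150 and 271, 296 and 323 CPM with NTC. Drd2, the D2 dopamine receptor of the indirect pathway, had 153.5, 167.4 and 178.2 CPM with HTT-10150 and 159.04, 166.1 and 183.2 CPM with NTC. Both ranges overlapped almost wholly, and the 95% intervals were -0.14 to 0.055 for Drd1 and -0.10 to 0.089 for Drd2.

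The remaining markers named by rule gave similar intervals. For Penk, the enkephalin precursor, the log2 fold change was -0.024 (95% interval -0.12 to 0.074), and for Pdyn, the dynorphin precursor, it was -0.029 (-0.19 to 0.13). For Tac1, the substance P precursor, it was -0.053 (-0.18 to 0.071), and for the adenosine receptor gene Adora2a it was -0.031 (-0.14 to 0.076). For the phosphodiesterase gene Pde10a it was -0.079 (-0.19 to 0.038), and for Ppp1r1b it was -0.034 (-0.14 to 0.074). Each interval includes 0 and leaves out a difference as large as that of Htt. Among zQ175 mice given NTC the mean of Drd1 was 158.5 CPM and that of Penk 431 CPM, against 296 and 1133 CPM in wild-type NTC mice.

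Gfap, the filament protein of reactive astrocytes, had 107.6, 131.6 and 234.02 CPM as the lowest, median and highest values with HTT-10150 and 121.5, 156.2 and 173.5 CPM with NTC. The highest library of the HTT-10150 group stood above the NTC range and 3 stood below it, and the log2 fold change was 0.0070 ± 0.19 (SE, edgeR adjusted p = 1), the widest interval of the named markers at -0.38 to 0.39. The 15 reactive astrocyte genes had 0 calls by edgeR and 1 gene at an unadjusted p under 0.05, with a median of 0.072. The 16 oligodendrocyte and myelin genes all had values above 0, from 0.022 to 0.14, and 0 of them were called or had an unadjusted p under 0.05. Over untreated mice 3 of the 16 were above 0 for HTT-10150, with a median of -0.032, and 0 of the 16 for NTC, with a median of -0.105.

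The 16 microglial genes were all above 0 as well, from 0.046 to 0.30 with a median of 0.13. By edgeR 0 were called, and 10 had an unadjusted p under 0.05, all higher, where 5.24% of all genes had such a p in either direction. C1qa, a chain of complement C1q, had 48.1, 54.6 and 71.7 CPM as the lowest, median and highest values with HTT-10150 and 47.5, 50.2 and 53.5 CPM with NTC (log2 fold change 0.22, edgeR adjusted p = 0.283). The 6 HTT-10150 libraries other than male 4 lay above the NTC range, and both females were the highest. Itgam, the integrin CD11b, had 26.6 to 35.1 CPM with HTT-10150 and 24.5 to 30.03 CPM with NTC (log2 fold change 0.20, edgeR adjusted p = 0.304). P2ry12, a purine receptor of resting microglia, had 39.4 to 42.9 CPM with HTT-10150 and 34.9 to 41.1 CPM with NTC (log2 fold change 0.14, edgeR adjusted p = 0.421). Aif1, which encodes IBA1, had 2.84 to 5.54 CPM with HTT-10150 and 2.98 to 4.76 CPM with NTC (log2 fold change 0.30, edgeR adjusted p = 0.86). These ranges overlapped for each gene. C1qa, Itgam and P2ry12 were named after their values were seen.

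The summed level of the 16 microglial genes was 644 to 768 CPM with HTT-10150 (median 672), 599 to 672 CPM with NTC (median 649) and 639 to 702 CPM in untreated mice (median 653). Of the 7 HTT-10150 libraries, 4 lay above the highest NTC library at 671.7 CPM. These were the 2 females at 768.4 and 748.5 CPM, male 5 at 700.3 CPM and male 3, just above it at 672.3 CPM. Fcrls moved with this list and is not on it, and the part of the microglial level in the Fcrls result was not tested. For HTT-10150 over untreated the list's median was 0.10, with 13 of the 16 above 0. At an unadjusted p under 0.05, 7 were higher and 0 lower, where 4.46% of all genes had such a p in either direction. The log2 fold changes of C1qa, Itgam and P2ry12 were 0.22, -0.043 and 0.042 there. For NTC over untreated the list's median was -0.044, with 4 of the 16 above 0 and 3 lower at an unadjusted p under 0.05. Among these 16, 1 member, Itgam, was called lower by edgeR in NTC mice (-0.24, adjusted p = 0.0126).

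Small interfering RNAs can be sensed as foreign, and the lists that read this out held no call. The 16 genes of innate RNA sensing had a median of 0.028 and 2 genes at an unadjusted p under 0.05, both higher, and 0 calls by edgeR. Eif2ak2, the kinase PKR that binds double-stranded RNA, had 5.52, 6.72 and 7.45 CPM with HTT-10150 and 5.04, 5.28 and 6.30 CPM with NTC as lowest, median and highest (log2 fold change 0.27, edgeR adjusted p = 0.703), and 4.77 to 7.55 CPM in untreated mice. The 27 interferon response genes had a median of 0.15, 24 of them above 0, with 7 at an unadjusted p under 0.05, all higher, and 0 calls by edgeR. Over all genes 5.24% had such a p in either direction. Xaf1, a gene induced by interferon, had 5.72 to 8.90 CPM with HTT-10150 and 3.94 to 5.98 CPM with NTC (log2 fold change 0.35, edgeR adjusted p = 0.824). Ifit3, another such gene, had 6.33 to 12.2 CPM with HTT-10150 and 5.59 to 8.17 CPM with NTC (log2 fold change 0.31, edgeR adjusted p = 0.86). Both pairs of ranges overlapped, and the 3 genes were named after their values were seen. For NTC over untreated the median of the interferon list was -0.045 with 0 genes at an unadjusted p under 0.05. For HTT-10150 over untreated the list's median was 0.091, with 25 of the 27 above 0. At an unadjusted p under 0.05, 2 were higher and 0 lower there. The summed level of the list was 246.74 to 286.17 CPM with NTC and 246.95 to 290.74 CPM in untreated mice. Both HTT-10150 females lay above these ranges, at 328.84 and 301.87 CPM, and none of the HTT-10150 males did.

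The 17 genes of the small RNA machinery had a median of -0.016, with 0 calls by edgeR and 0 genes at an unadjusted p under 0.05. Ago2, the Argonaute that cuts paired messengers, had 106 to 123 CPM with HTT-10150 and 105 to 138 CPM with NTC (log2 fold change 0.0082, 95% interval -0.12 to 0.13). The p53 targets, the integrated stress response, the chaperones and the proteasome had medians of 0.016, 0.063, 0.006 and -0.008, also with 0 calls by edgeR and 0 genes at an unadjusted p under 0.05.

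The lists with the largest medians were those named for cells around the striatum. Calb2, a member of the cortical and thalamic list, was also on the striatal interneuron list. The part of the summed levels that came from cells outside the striatum was not tested. The cortical and thalamic neuron genes had a median of 0.32 and summed levels of 1780 to 2263 CPM with HTT-10150 and 1668 to 2289 CPM with NTC. The choroid plexus and ependymal genes had a median of 0.24 and sums of 335 to 1285 CPM with HTT-10150 and 345 to 469 CPM with NTC, the highest being female 1 in HTT-10150. The meningeal and fibroblast genes had a median of 0.22 and sums of 27.4 to 64.2 CPM with HTT-10150 and 25.9 to 43.4 CPM with NTC. In each of these lists 0 genes were called by edgeR, and 0, 3 and 1 had an unadjusted p under 0.05 in that order, the 3 choroid plexus and ependymal genes lower and the meningeal gene higher. For HTT-10150 over untreated the medians of these lists were 0.090, -0.415 and -0.512, so that those of choroid plexus and of meninges lay on the other side of 0. Untreated female 3 and male 3, high in both of the latter lists, are part of that baseline. The list medians were not computed without them. Among the remaining lists, 25 of 26 cytosolic ribosomal protein genes had values above 0, with a median of 0.050 and 3 at an unadjusted p under 0.05, and 18 of 20 immediate early genes did, with a median of 0.088 and 0 at that p. Over untreated mice 24 of the ribosomal protein genes were above 0 for HTT-10150 (median 0.051) and 12 for NTC (median -0.002), and 8 of the immediate early genes were above 0 for HTT-10150 (median -0.024) and 2 for NTC (median -0.103). Without the 4 wild-type libraries above 100 CPM of Slc17a7, a selection made after seeing the data, Htt was at -0.52 (edgeR adjusted p = 4.19e-05) and Fcrls at 0.52 (edgeR adjusted p = 0.000355).

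**Figure D4:**
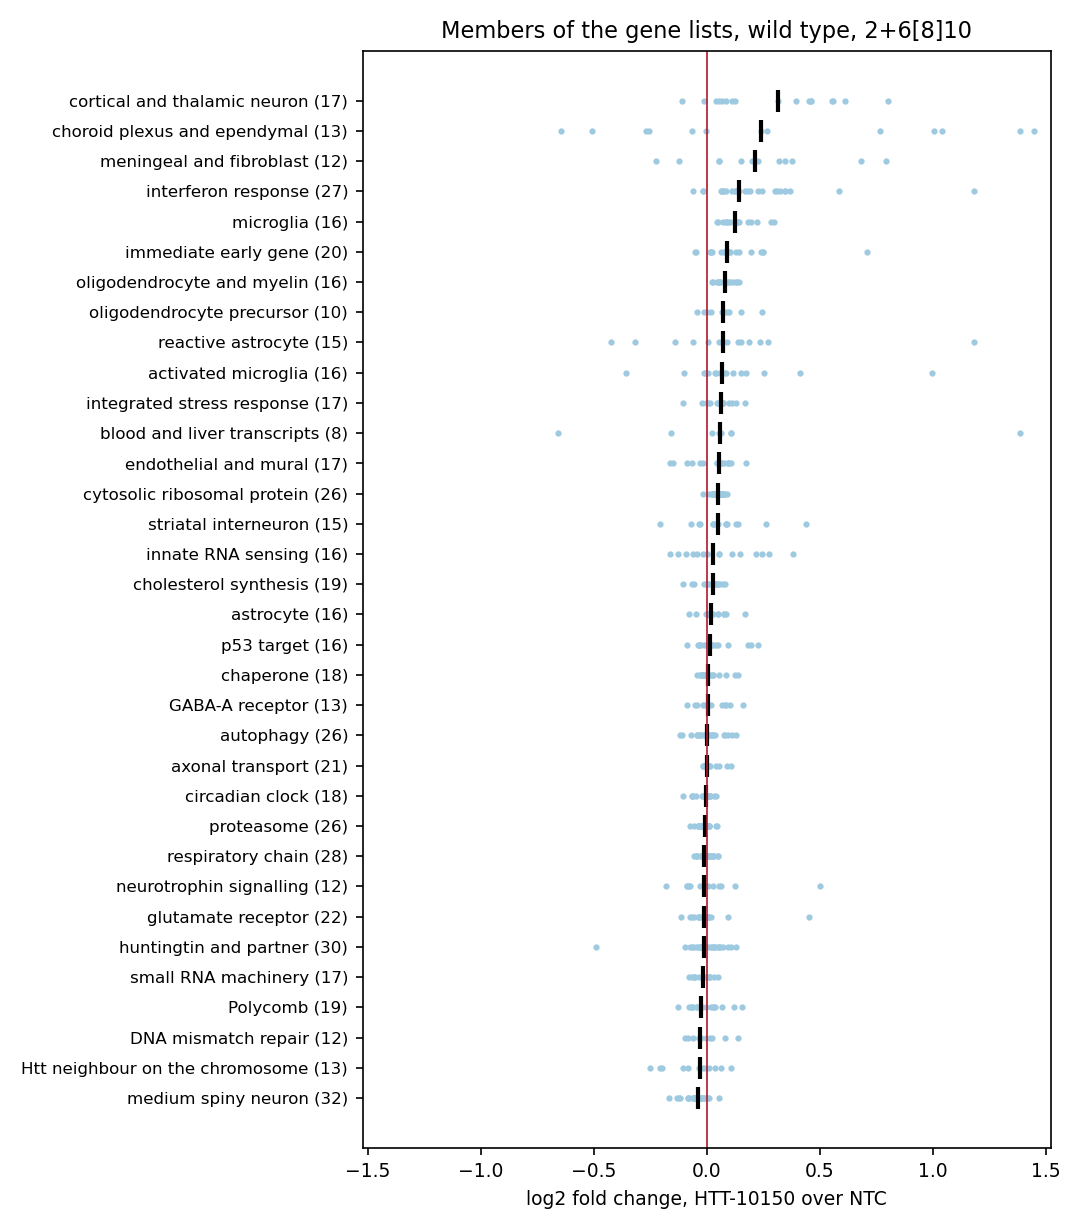
Log2 fold change, HTT-10150 over NTC in wild-type mice of 2+6[8]10, of each tested member of the 34 gene lists (blue points, number tested in brackets). Black bars are list medians and the red line the median of all genes; the medians run from -0.037 for medium spiny neurons to 0.32 for cortical and thalamic neurons, and Htt is the point at -0.49 in the list of huntingtin and its partners.

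The same agent in zQ175 mice of the same strategy also lowered Htt. Htt had 85.7, 109 and 120 CPM as the lowest, median and highest values in zQ175 mice with HTT-10150 and 131, 138 and 144.5 CPM in zQ175 mice with NTC, a log2 fold change of -0.36 ± 0.058 (SE, edgeR adjusted p = 0.000346). The groups did not overlap. The wild-type effect minus the zQ175 effect was -0.13 ± 0.083 and did not pass the test (edgeR adjusted p = 0.571). Fcrls had a mean of 21.4 ± 3.61 CPM with HTT-10150 and 18.2 ± 2.26 CPM with NTC in zQ175 mice (SD, n = 8 each), a log2 fold change of 0.23 (edgeR adjusted p = 0.0398). Its wild-type effect minus its zQ175 effect was 0.25 ± 0.094 (SE, edgeR adjusted p = 0.229).

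In zQ175 mice HTT-10150 over NTC called 490 genes (3.16%), 170 higher (1.1%) and 320 lower (2.06%), where wild-type mice had 2. The difference of the effect itself, wild type minus zQ175, was called for 82 genes (0.529%), 46 above 0 (0.297%) and 36 below (0.232%). With DESeq2 the difference was called for 221 genes.

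The 5 differences of smallest p were those of Klf12, Gm14827, Xpr1, Tmod2 and Prex2. Klf12, a Krüppel-like repressor of transcription, had 3.83, 5.13 and 5.76 CPM as the lowest, median and highest values with HTT-10150 and 3.38, 3.73 and 5.16 CPM with NTC in wild-type mice. In zQ175 mice it had 4.08, 4.32 and 4.42 CPM with HTT-10150 and 5.19, 6.11 and 6.78 CPM with NTC. The wild-type groups overlapped and the zQ175 groups did not, and the log2 fold changes of 0.33 in wild type and -0.50 in zQ175 differed by 0.82 ± 0.13 (SE, edgeR adjusted p = 0.00193). Against untreated wild-type mice the HTT-10150 value of Klf12 was -0.16, and those of Gm14827 and Prex2 were 0.20 and -0.0072, each on the other side of 0 from its value over NTC.

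Gm14827, a long intergenic RNA, had 4.36 to 6.31 CPM with HTT-10150 and 3.84 to 9.84 CPM with NTC in wild-type mice, one range inside the other. In zQ175 mice it had 6.19 to 9.15 CPM with HTT-10150 and 3.70 to 5.78 CPM with NTC, without overlap, and the effects of -0.24 in wild type and 0.73 in zQ175 differed by -0.97 ± 0.18 (SE, edgeR adjusted p = 0.0116). Prex2, an exchange factor for the GTPase Rac, had 78.2 to 102.2 CPM with HTT-10150 and 70.4 to 86.1 CPM with NTC in wild-type mice, and 60.1 to 69.3 CPM with HTT-10150 and 63.5 to 78.2 CPM with NTC in zQ175 mice. Both pairs overlapped, and the effects of 0.24 in wild type and -0.17 in zQ175 differed by 0.42 ± 0.080 (SE, edgeR adjusted p = 0.0116).

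Xpr1, the exporter of phosphate, had 133.4 to 152.5 CPM with HTT-10150 and 133.5 to 153.2 CPM with NTC in wild-type mice, and 124.1 to 133.1 CPM with HTT-10150 and 138.8 to 152.9 CPM with NTC in zQ175 mice. Tmod2, a neuronal protein that caps actin filaments, had 403 to 446 CPM with HTT-10150 and 402 to 442 CPM with NTC in wild-type mice, and 345 to 382 CPM with HTT-10150 and 398 to 420 CPM with NTC in zQ175 mice. For both genes the wild-type ranges nearly coincided and the zQ175 ranges were apart. The wild-type log2 fold changes were 0.015 for Xpr1 and 0.026 for Tmod2, with 95% intervals of -0.042 to 0.072 and -0.033 to 0.086, and the differences from zQ175 were 0.21 ± 0.039 and 0.22 ± 0.041 (SE, edgeR adjusted p = 0.0116 for each).

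**Figure D5:**
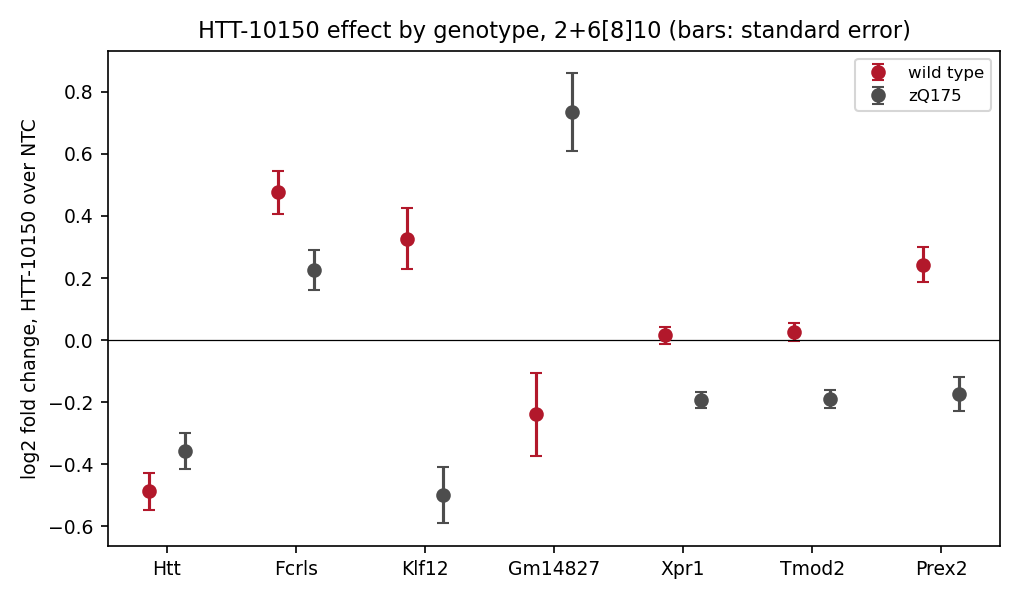
Log2 fold change, HTT-10150 over NTC in 2+6[8]10, of Htt, Fcrls and the 5 genes whose effects differed most clearly between genotypes, in wild-type mice (red) and zQ175 mice (grey). Bars are standard errors. Klf12, Gm14827 and Prex2 lie on opposite sides of 0 in the 2 genotypes, Xpr1 and Tmod2 lie near 0 in wild type (0.015 and 0.026), and Htt is below 0 in both.

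The strategies with 1 treatment gave the same comparison in other wild-type mice, where the fitted change of Htt was also below 0, smaller in size and not called. In 2[4]6 Htt had 102.6, 130.6 and 145.4 CPM as the lowest, median and highest values with HTT-10150 and 146.2, 152.95 and 159.15 CPM with NTC. In 6[4]10 it had 78.1, 135.7 and 149.2 CPM with HTT-10150 and 144.4, 158.5 and 171.7 CPM with NTC. The groups were apart in 2[4]6 and overlapped in 6[4]10, where the HTT-10150 mice spread most (SD 25.3 CPM, n = 8). The log2 fold changes were -0.26 ± 0.051 in 2[4]6 and -0.34 ± 0.084 in 6[4]10 (SE), with edgeR adjusted p of 0.0567 and 0.82. The effect in 2+6[8]10 minus that in 2[4]6 was -0.23 ± 0.098 and minus that in 6[4]10 was -0.15 ± 0.098 (SE), and neither passed the test over all genes (edgeR adjusted p = 0.95 and 1).

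Over all 16295 genes in the fit of the 3 strategies, edgeR called 0 genes for the difference between 2+6[8]10 and 2[4]6 (802, or 4.92%, at an unadjusted p under 0.05) and 0 for that between 2+6[8]10 and 6[4]10 (461, or 2.83%, at an unadjusted p under 0.05), and DESeq2 called 0 in each. Age and the number of treatments cannot be told apart between 2+6[8]10 and 2[4]6. Nor can age at first treatment and the number of treatments be told apart between 2+6[8]10 and 6[4]10. Each strategy used its own mice, so a difference between these sets of mice cannot be told apart from strategy. Within the strategies with 1 treatment, HTT-10150 over NTC in wild-type mice called 1 gene in 2[4]6 (0.00636%), Abca8a, at 0.32 (edgeR adjusted p = 0.0196), with 932 (5.93%) at an unadjusted p under 0.05, and 0 genes by edgeR in 6[4]10 (517, or 3.28%, at an unadjusted p under 0.05). Fcrls had log2 fold changes of 0.17 in 2[4]6 and 0.24 in 6[4]10 in wild-type mice, and 0.17 in 2[4]6 and 0.27 in 6[4]10 in zQ175 mice, and 0 of these 4 passed the test (edgeR adjusted p of 0.823, 1, 0.925 and 0.65 in that order).

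In the wild-type mice of 2[4]6 the mean of Fcrls was 23.7 ± 2.54 CPM with HTT-10150 and 21.2 ± 4.51 CPM with NTC (SD, n = 8 each). In those of 6[4]10 it was 22.6 ± 4.07 CPM with HTT-10150 and 19.1 ± 3.70 CPM with NTC (SD, n = 8 each). The groups overlapped in both strategies. The difference of the effect of HTT-10150 between the sexes in 2+6[8]10 was called for 0 genes by edgeR, with 651 (4.2%) at an unadjusted p under 0.05 and a median standard error of 0.14.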

How the data were processed

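Poly(A)-selected RNA from dissected striatum was sequenced, per the labels' protocols. The authors deposited a table of RSEM expected counts per gene, with GRCm38 as the genome build, per the submitters' processing notes; the sources used here do not give the RSEM version, aligner or annotation. A separate table named for FPKM was not used, as its columns did not hold that unit.

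The table had 41135 entries, of which 41128 named genes. The other 7, constructs and mutant Htt, held 5.91e-06% of counts and entered neither library sizes nor tests. The deposited expected counts were rounded to integers first (78.2% of nonzero values were whole). Symbols were found for 40254 genes, and positions and the coding sequence come from GENCODE M21 on GRCm38.

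Groups follow the labels. Genes were tested in edgeR 4.0.16 (R 4.3.3), by its quasi-likelihood F test over the 47 libraries of the 6 groups of 2+6[8]10, with a sex term, TMM scaling, filterByExpr and robust dispersions, calling genes at a Benjamini-Hochberg adjusted p under 0.05. Adjusted p-values cover all genes tested. Strategy differences came from 1 fit of 143 libraries with sex within strategy, and sex differences from a fit of group by sex. The script was tested on simulated data. No 2 libraries were identical.

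The genes named by rule were Htt, up to 12 called genes in each direction with a mean log2 CPM over 1, up to 4 members of each list with a call, the 5 called genes of smallest p for each difference, and the markers Aif1, Gfap, Adora2a, Drd2, Penk, Drd1, Pdyn, Tac1, Ppp1r1b and Pde10a. One gene that the rule names is not reported here. The comparison, gene lists, rule and tests were chosen with earlier results of these data known. Alternatives were DESeq2 1.42.0, RLE factors, no count filter, other sets of libraries, no sex term, 2 kinds of block, untreated controls, males alone, length and GC slopes and leaving out each library; 3 more, without libraries of high Slc17a7, without those of high choroid plexus sum and with all 143 libraries in 1 fit, were chosen after seeing the data.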

Additional observations from a re-analysis of the deposited data

Results flagged for a closer look

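In 3 of 40 groups tested (20 named genes in HTT-10150 and in NTC mice), 1 library stood apart from its group by Dixon's criterion, which chance alone would meet in about 1 in 20 groups. Drd1 was 258 CPM in HTT-10150 female 1, against 290 to 302 CPM in the other HTT-10150 libraries. Tac1 was 166.04 CPM in the same library, against 192 to 211 CPM in the others. This is the library with 158.8 CPM of Slc17a7 and 596 CPM of Ttr, and the part of these transcripts in the 2 values was not tested. Kif5b was 452 CPM in HTT-10150 male 1, against 539.5 to 567 CPM in the others.

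For 5 named genes the effect of HTT-10150, wild type minus zQ175 in 2+6[8]10, differed between genotypes in edgeR's test of the difference. They were named as the genes of smallest p among the 82 (0.529%) called in that test, so this flag follows from the choice. The log2 differences were 0.82 for Klf12 (adjusted p = 0.00193), -0.97 for Gm14827, 0.21 for Xpr1, 0.22 for Tmod2 and 0.42 for Prex2 (adjusted p = 0.0116 for each of these 4).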

How the results depend on the processing

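Htt was lower under every alternative run, from -0.39 to -0.52 log2, and was called in all but the fit of males alone (-0.39, edgeR adjusted p = 0.341, unadjusted p = 2.5e-05). Leaving out each of the 15 libraries gave -0.52 to -0.45 for Htt and 0.42 to 0.52 for Fcrls, both called each time. Fcrls was no longer called without a sex term (0.42), in males alone (0.42) or against untreated mice (0.11).

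The count of 2 called genes became 1 without a sex term, 5 with only the 15 libraries, 1 against untreated mice, 0 by edgeR in males alone (462 at an unadjusted p under 0.05), 7 with all 143 libraries in 1 fit, 6 with DESeq2, and 2 to 6 when each library was left out. It was 4 without HTT-10150 male 1 or male 5 and 6 without NTC male 4. For NTC over untreated, DESeq2 called 82 genes, and edgeR called 17 without the libraries high in choroid plexus genes. For zQ175 DESeq2 called 808, and for the genotype difference 221, against 54 by edgeR without a sex term.

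The labels do not state whether the replicate numbers pair the mice, and the correlations between mice could not decide it. Deviations of same-numbered mice of the same sex correlated at 0.023 to 0.296 (6 pairs, 5 over 0.1, 4 best with their own number), and with the number in the library name at -0.134 to 0.407. The correlations of HTT-10150 female 1 were those of female 2 with the sign turned, so these pairs are not independent. With the replicate number as a replicate block Htt was at -0.44 and 2 genes were called; with the library number as a block 3 were called.

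Named genes that were not called for HTT-10150 over NTC changed sign under some alternatives, and the cause was not tested. Klf12 (0.33), Gm14827 (-0.24) and Prex2 (0.24) did so against untreated mice, and the others were at 0.11 or less in size. Against untreated mice the values were 0.0037 for Adora2a, 0.20 for Gm14827, -0.031 for Kif5b, -0.16 for Klf12, 0.028 for Penk, 0.0081 for Ppp1r1b, -0.0072 for Prex2, -0.066 for Tmod2 and -0.023 for Xpr1. In males alone they were -0.23 for Gfap, 0.016 for Penk and -0.021 for Tmod2. Gfap was -0.018 without a sex term and -0.081 without the libraries high in Slc17a7, where Drd2 was 0.0060; without those high in choroid plexus genes Gfap was -0.12 and Drd2 0.0088. With the replicate block Xpr1 was -0.0025, and with the library number as a block Xpr1 was -0.016 and Pdyn 0.0019. With each library left out Drd2 ran from -0.025 to 0.011, Gfap from -0.12 to 0.061, Pdyn from -0.053 to 0.0072 and Xpr1 from -0.0016 to 0.029. The 2 females given HTT-10150 limit every statement on sex.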

Other observations

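7630403G23Rik lay under the count filter of the main test and was called higher with HTT-10150 over NTC in 11 other settings. Its level was 0.161 to 1.03 CPM in HTT-10150 mice, 0 to 0.221 CPM in NTC mice, 3 of which were at 0, and 0.371 to 0.912 CPM in untreated mice, with at most 13 counts in a library. In zQ175 mice of the strategy it was 0.0481 to 0.334 CPM with HTT-10150, 0 to 0.202 CPM with NTC and 0.204 to 0.57 CPM untreated. It was chosen after its values were seen.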
